A study of Drosophila melanogaster with 6 samples.

Results

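The netrins and netrin receptors of the fly are encoded by 4 genes, the ligand genes NetA and NetB and the receptor genes fra (frazzled) and unc-5. They were found by symbol, and again by FlyBase identifier, among the 13727 genes of the authors' deposited table, and all 4 were present. The libraries were made from L3 lamina neurons of the optic lobe, which were labelled, sorted by flow cytometry and collected at 24 h of pupal development (after puparium formation). The WT group held 3 samples, titled FRT40, and the dFezf1 group 3 samples, which carry a mutant allele of dFezf, the zinc-finger transcription factor gene also known as earmuff (erm). The genotype of the fluorescent label, and whether the mutant cells lay in mutant or mosaic animals, are not given in the sources used here. Titles carry the dates 28, 29 and 30 November for WT and 12, 13 and 14 December for dFezf1, so title date and genotype cannot be told apart, while library preparation and sequencing were done together for both genotypes according to the design text.

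Netrins are secreted, laminin-related proteins that steer growing axons and position axon terminals. Frazzled, the fly counterpart of DCC, mediates attraction and adhesion to netrin, and Unc-5 mediates repulsion, alone or together with Frazzled. In the fly medulla, netrin supplied by L3 axons accumulates in a single layer, and R8 photoreceptor axons that carry Frazzled attach there. The comparison asked how the transcripts of these genes differed between WT and dFezf1 mutant L3 neurons.

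In L3 neurons, 1 netrin gene and both receptor genes were transcribed, and of these the netrin gene alone passed the test between genotypes. NetB was among the more abundant transcripts of WT neurons and was nearly missing from dFezf1 neurons. NetA was near 0 in both genotypes. The receptor genes fra and unc-5 were present in both genotypes, and neither passed the test. Of the 3 members that were tested, the authors' deposited table calls 1 (adjusted p below 0.05), and it was lower in dFezf1. As background, 6.82% of all 9387 tested genes were called in that authors' deposited table, 2.49% as lower and 4.33% as higher.

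**Figure D1:**
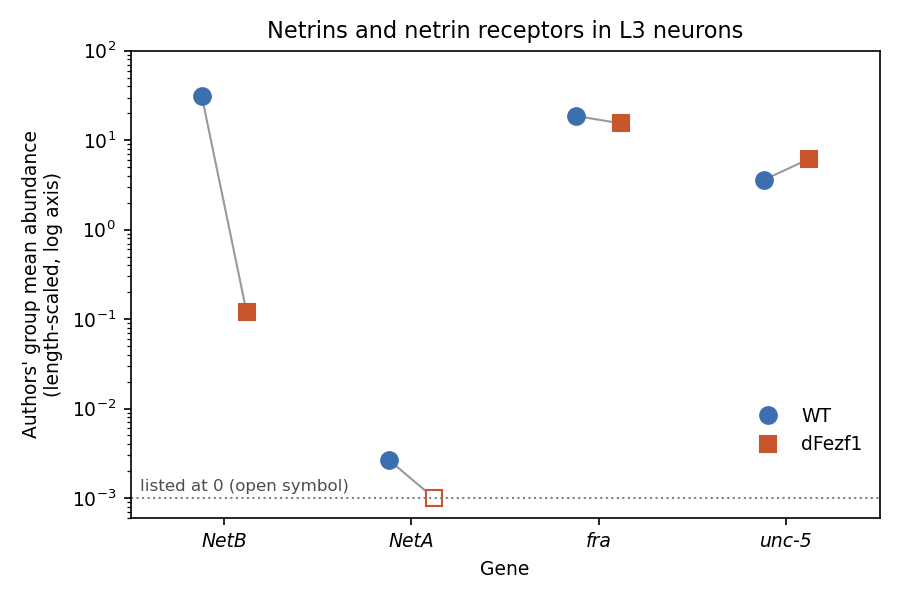
Authors' group mean abundance (length-scaled, log axis) of NetB, NetA, fra and unc-5 in WT (circles) and dFezf1 (squares), with no error because the deposited means carry none. NetB goes from 31.5 to 0.119, fra and unc-5 keep their order with fra above unc-5, and NetA is listed at 0 in dFezf1 (open square).

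The ligand gene NetB (FBgn0015774) lies on the minus strand of chromosome X, from 14686038 to 14749376 in build BDGP6, and spans 63.3 kb. The annotation gives it 7 transcripts built from 15 distinct exons, with proteins of 785 to 793 residues. Its group mean abundance per the authors' deposited table was 31.5 in WT and 0.119 in dFezf1. The WT mean was higher than that of 94.3% of the 13727 genes listed, and the dFezf1 mean was higher than that of 43.5%. These shares count the many genes listed at 0, so they give no place among transcribed genes. The WT mean of NetA, 0.00266, was already higher than that of 36.6% of genes. The unshrunken ratio of these 2 means per the authors' deposited table was 265-fold. The log2 fold change, whose deposited values were read as shrunken toward 0, was -6.43 ± 0.60 (SE) per the authors' deposited table, with a 95% interval of -7.60 to -5.25 and an adjusted p of 2.26e-24. In linear terms the shrunken estimate is an 86.0-fold difference. The change did not rest on a thinly read gene, since the mean normalized count of NetB over all libraries was 7723 and only 266 tested genes had a higher one per the authors' deposited table. By the authors' test statistic NetB ranked 4 among the 9387 tested genes, counted from the most negative. NetB and 9 further genes were called lower with at least this mean normalized count per the authors' deposited table, and of these the uncharacterized gene CG32052 alone had a more negative log2 fold change than NetB. In bulk sorted cells, fewer cells that express NetB and less NetB RNA per cell cannot be told apart.

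NetA (FBgn0015773), the paralog of NetB, lies on the same strand of chromosome X, from 14604012 to 14653928. It has 3 annotated transcripts and proteins of 667 to 726 residues. In the authors' deposited table its mean normalized count was 0.218 over all libraries, its group mean was 0.00266 in WT, and it is listed at 0 in dFezf1. It was given no adjusted p, and no fold is stated for it. Its unadjusted p per the authors' deposited table was 0.797. In WT L3 neurons NetB thus stood in the upper part of the range of levels and NetA at its floor.

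The receptor gene fra (FBgn0011592) lies on the plus strand of chromosome 2R, from 12529053 to 12564184, and encodes proteins of 1375 to 1526 residues through 3 transcripts. Its group mean abundance per the authors' deposited table was 18.6 in WT and 15.4 in dFezf1, higher than that of 91.0% and 90.1% of genes, those listed at 0 included. The log2 fold change was -0.15 ± 0.29 (SE) per the authors' deposited table, with an adjusted p of 0.889. The 95% interval of this shrunken estimate ran from -0.72 to 0.41, which corresponds to a difference of -39.2% to 32.9% relative to WT. A difference of fra within these bounds was not excluded here.

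unc-5 (FBgn0034013), the other receptor gene, lies on the plus strand of chromosome 2R, from 15340472 to 15368300, and has 2 transcripts that encode 1 protein of 1072 residues. The authors' deposited table puts its mean abundance at 3.59 in the WT group and 6.14 in the dFezf1 group. The log2 fold change was 0.79 ± 0.50 (SE) per the authors' deposited table, with a 95% interval of -0.19 to 1.78 and an adjusted p of 0.496. The upper bound of the interval is 242% above WT, so the data leave the difference of unc-5 between genotypes less well fixed than that of fra. unc-5 shares 227 exonic bases with Pms2, a mismatch repair gene on the opposite strand. Pms2 had group means of 0.647 and 0.984 and a log2 fold change of 0.25 ± 0.79 per the authors' deposited table.

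Set against one another on this length-scaled measure, the members were ordered NetB, fra, unc-5, NetA in WT and fra, unc-5, NetB, NetA in dFezf1. In WT the NetB mean was 1.69 times the fra mean and 8.77 times the unc-5 mean per the authors' deposited table. In dFezf1 the fra mean was 130 times and the unc-5 mean 51.8 times the NetB mean per the authors' deposited table. The ratio of fra to unc-5 was 5.19 in WT and 2.50 in dFezf1 per the authors' deposited table, from group means that carry no spread, so neighbours in this order were not tested against each other. The authors put all 4 genes in their cell surface category, in which 107 of 644 tested genes (16.6%) were called per the authors' deposited table, 40 of them lower (6.21%) and 67 higher (10.4%). NetB had the second most negative statistic in that category.

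The sorted cells carried the markers of neurons. The 5 pan-neuronal genes elav, nSyb, Syt1, brp and fne had group means of 16.7 to 52.6 in WT and 14.0 to 103 in dFezf1 per the authors' deposited table, and none was called (3 had an unadjusted p under 0.05, all higher). erm, the mutated gene and the marker of L3 among lamina neurons, had means of 55.1 and 49.2 per the authors' deposited table, so its transcript does not check the genotype labels. The 5 glial markers lay between 0.162 and 0.343 in WT and between 0.273 and 4.08 in dFezf1 per the authors' deposited table, with summed levels of 1.21 and 5.66, and none was called (1, Gs2, had an unadjusted p under 0.05). Most of that difference in sums was Gs2, a glutamine synthetase gene, at 0.262 and 4.08 per the authors' deposited table, and the other 4 glial markers summed to 0.945 and 1.59. Of the 6 photoreceptor markers, 3 were listed at 0 in WT and 2 in dFezf1, among them ninaE and trp in both, and the highest was trpl, at 1.19 and 2.90 per the authors' deposited table. svp, a marker of L1 neurons, was called higher per the authors' deposited table, at 0.0408 in WT and 2.02 in dFezf1. Of the 3 lamina precursor markers, gcm was called higher, at 0 and 0.494 per the authors' deposited table, with few reads (mean normalized count 22.0) and a 95% interval of its shrunken log2 fold change that included 0 (-0.61 to 1.69). The other precursor markers were not called, dac with means of 26.9 and 17.6 per the authors' deposited table and tll listed at 0 in both groups. In each group the mean of dac lay within the range of the 5 pan-neuronal genes. Precursors and the sorted neurons cannot be told apart as its source. The L2 markers bab1 and bab2 and the L4 and L5 markers bsh, ap and pdm3 had means of at most 0.323 per the authors' deposited table, and none was called. Whether any of these cells contributed to the levels of netrin genes was not tested.

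NetB was next set beside other guidance cue genes. Among 10 genes that encode secreted or membrane-bound cues, the NetB mean in WT was the second highest, below Sema1a and above Sema2b per the authors' deposited table. The transmembrane semaphorin gene Sema1a had means of 41.5 in WT and 52.8 in dFezf1, and the secreted semaphorin gene Sema2b had 21.9 and 10.9 per the authors' deposited table. In dFezf1 NetB ranked 9 of these 10 cues, with NetA alone below it. The slit gene sli, which encodes the ligand of Robo receptors, had means of 7.09 and 8.54 per the authors' deposited table. The ephrin gene Ephrin stood at 7.21 and 5.80, and Wnt5, the ligand of Derailed, at 2.76 and 3.52 per the authors' deposited table. Of the 8 cues other than netrins none was called by the authors' test, beside 6.82% of all tested genes. Among so few genes no call is near that share. None had an unadjusted p under 0.05. Their log2 fold changes lay between -0.72 and 0.45 per the authors' deposited table, 5 above 0 and 3 below.

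**Figure D2:**
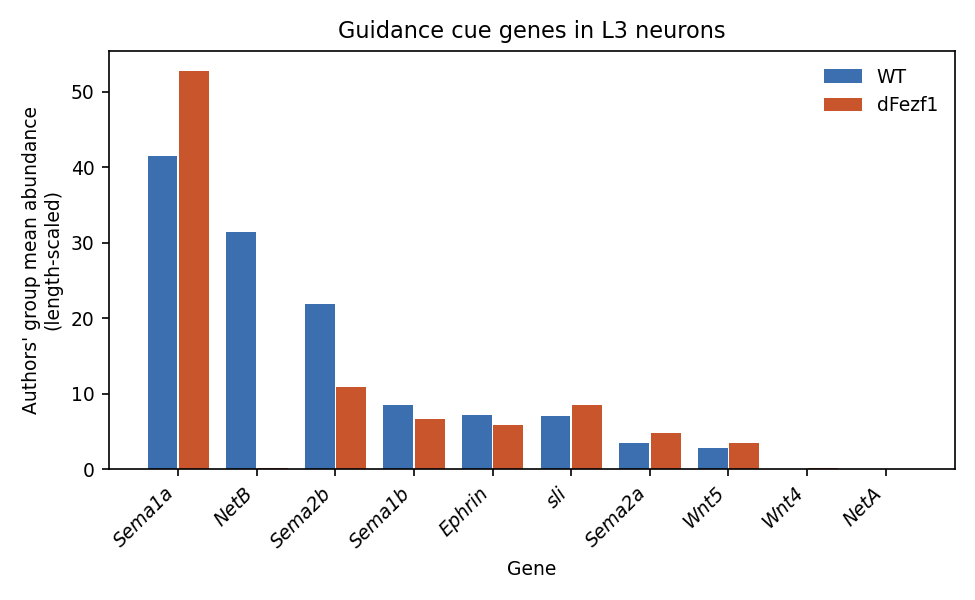
Authors' group mean abundance (length-scaled, linear axis from 0) of 10 guidance cue genes in WT (left bar) and dFezf1 (right bar), ordered by the WT mean, with no error because the deposited means carry none. NetB has the second highest bar in WT, 31.5, and a bar too low to see in dFezf1, 0.119.

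The wider netrin pathway was described from a list of 47 genes, of which 46 were tested. Of these 46, the authors' deposited table calls 2, NetB and LanA, both lower, which is 4.35% against 6.82% of all tested genes. The role groups described below hold at most 11 genes each, so a group with no call is near the share over all genes. The median log2 fold change of the list was 0.05, against 0.03 over all tested genes. The third receptor gene of the list, Dscam1, which encodes an immunoglobulin-family receptor that binds netrin, had group means of 6.72 and 12.0 and a log2 fold change of 0.85 ± 0.49 (SE) per the authors' deposited table, with an adjusted p of 0.437. No gene among the 3 receptors was called or had an unadjusted p under 0.05 in the authors' test.

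The γ-secretase genes Psn, Nct, aph-1 and pen-2 encode the complex that cleaves Frazzled within the membrane, and kuz encodes a sheddase of guidance receptors. With comm, none of these 6 genes was called in the authors' test, and 1, comm, had an unadjusted p under 0.05. The group means of the 4 γ-secretase genes per the authors' deposited table were 29.3 and 18.5 for Psn, 5.45 and 4.40 for Nct, 34.3 and 20.5 for aph-1, and 31.9 and 16.2 for pen-2. Their adjusted p ranged from 0.690 to 0.933 per the authors' deposited table.

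comm was named after its values were seen. It encodes Commissureless, which keeps Robo receptors from the growth cone surface, and in the fly embryo its transcription is promoted by the cleaved intracellular part of Frazzled. The authors' deposited table gives comm a group mean of 0.579 in WT and 31.03 in dFezf1. Its shrunken log2 fold change was 0.98 ± 0.71 (SE) per the authors' deposited table and its adjusted p was 0.229, so the gap between the means did not pass the test. The related gene comm2 was called higher, from 0 in WT to 0.654 in dFezf1 and with few reads (mean normalized count 18.3), per the authors' deposited table. comm3, a further gene of this family, went the other way, from 0.602 in WT to 0 in dFezf1 per the authors' deposited table. It also had few reads (mean normalized count 19.4) and was not called (adjusted p = 0.367 in the authors' test).

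No adaptor or kinase gene among 10 was called in the authors' test, and 3 had an unadjusted p under 0.05. Abl, the Abelson kinase that binds the cytoplasmic part of Frazzled, had means of 20.9 and 37.1 and a log2 fold change of 0.92 ± 0.41 (SE) per the authors' deposited table, with an adjusted p of 0.240. fax, a genetic modifier of Abl, was the most abundant of the group, at 212 and 310 per the authors' deposited table, at a log2 fold change of 0.67 ± 0.32 (adjusted p = 0.286). The tyrosine kinase gene FER had the greatest log2 fold change of the 10, 1.78 ± 0.81 with an adjusted p of 0.180 per the authors' deposited table, at means of 0.115 and 1.52. The SH2-SH3 adaptor gene dock (means of 7.52 and 4.80) and its partner kinase gene Pak (4.86 and 7.60) had log2 fold changes of -0.34 ± 0.57 and 0.71 ± 0.37 per the authors' deposited table.

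Of 11 actin regulators none was called in the authors' test, and 2 had an unadjusted p under 0.05. ena, which encodes an actin filament elongation factor, had means of 11.9 and 18.5 per the authors' deposited table and a log2 fold change of 0.81 ± 0.46 with an adjusted p of 0.423. The profilin gene chic and the cofilin gene tsr had WT means of 267 and 299 and dFezf1 means of 194 and 218 per the authors' deposited table, with log2 fold changes of -0.35 ± 0.27 and -0.40 ± 0.43.

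Among the 7 matrix and proteoglycan genes, 1 was called, the laminin chain gene LanA. By its identifier LanA had a mean normalized count of 17.1, a WT mean of 0.0561 and a dFezf1 mean of 0 per the authors' deposited table, with an adjusted p of 3.27e-06. Its row carries the symbol of CG31808 per the authors' deposited table, while the row of CG11313 carries the symbol LanA and holds an identical mean normalized count, fold change and adjusted p, so the gene to which these values belong is uncertain. The 95% interval of its shrunken log2 fold change, -0.53 ± 0.59 (SE) per the authors' deposited table, included 0. The heparan sulfate proteoglycan genes Sdc and dally had log2 fold changes of 0.20 ± 0.27 and -0.07 ± 0.32 per the authors' deposited table.

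**Figure D3:**
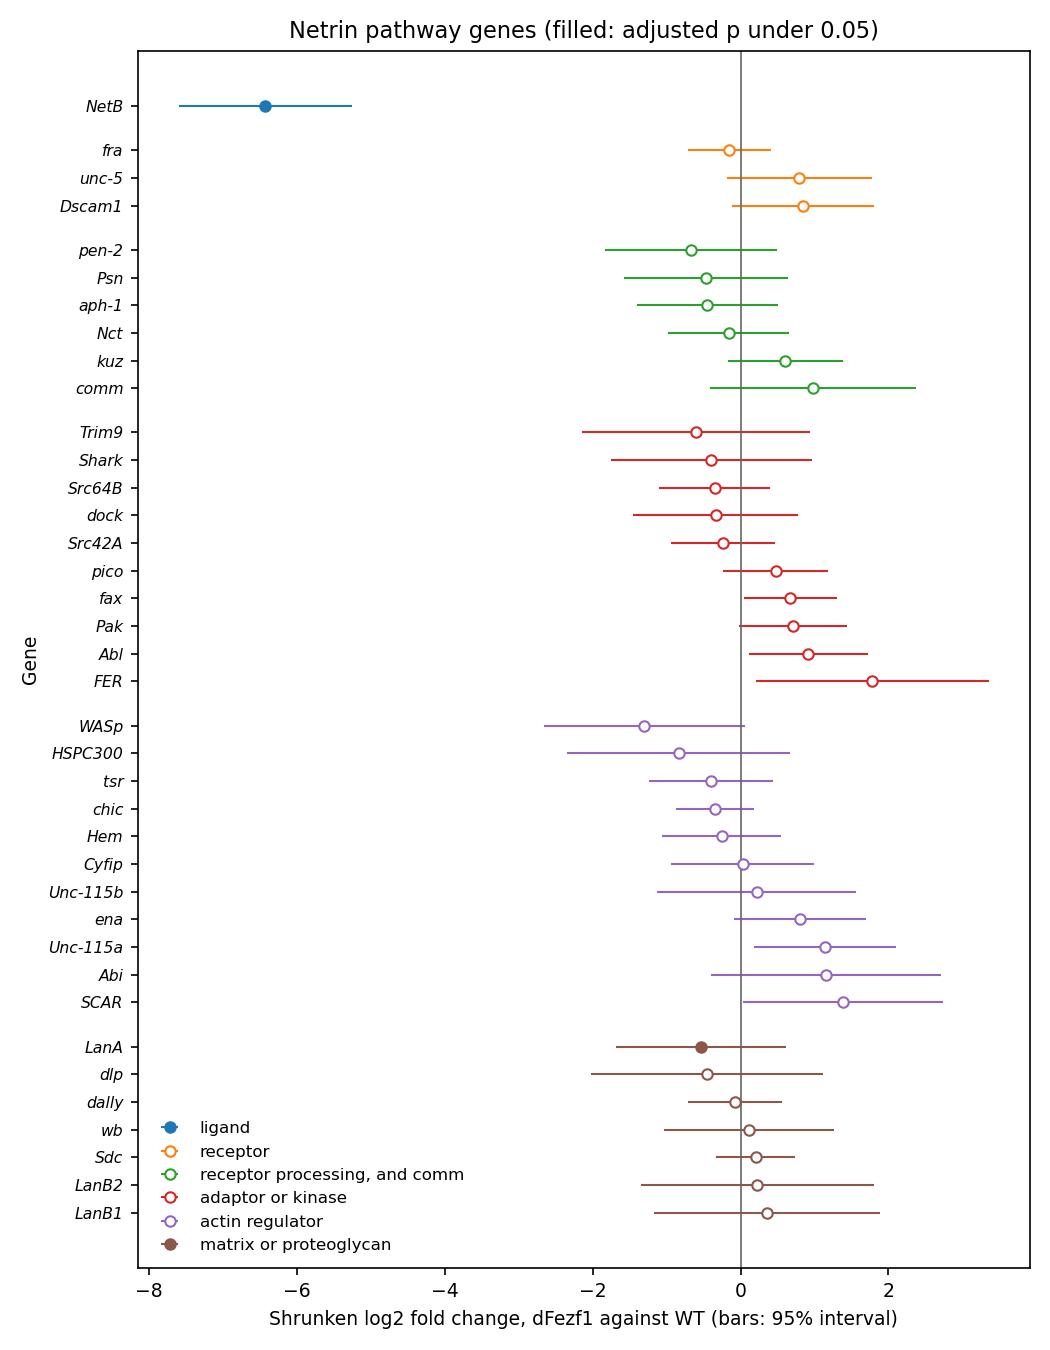
Shrunken log2 fold change of dFezf1 against WT (horizontal axis) for 38 of the 46 tested netrin pathway genes, grouped by role, with 95% intervals from the deposited standard error and filled points for an adjusted p under 0.05. NetB stands at -6.43, and the genes drawn that were not called lie between -1.30 and 1.78.

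Other families of guidance genes were compared through a list of 48, of which 1 had no match and 46 were tested. Of these 46, the authors' deposited table calls 9, 7 higher and 2 lower, which is 19.6% against 6.82% of all tested genes and 16.6% of the cell surface category. The median log2 fold change of the list was 0.31, against 0.17 over the cell surface category and 0.03 over all tested genes. Besides NetB the gene called lower was caps, which encodes a leucine-rich-repeat surface protein, with means of 3.55 and 0.0514 and an adjusted p of 0.000242 per the authors' deposited table. Among genes called higher, tutl encodes an immunoglobulin-family protein of axons and dendrites. It had means of 25.6 and 63.8 and a log2 fold change of 1.38 ± 0.33 (SE) per the authors' deposited table, with an adjusted p of 0.000704.

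Ptp99A, a receptor tyrosine phosphatase gene, had means of 26.6 and 110 per the authors' deposited table (adjusted p = 1.66e-07). Dscam4, a paralog of Dscam1, had means of 0.109 and 9.65 per the authors' deposited table (adjusted p = 9.40e-15). Drl-2, a receptor of the Derailed family, was at 0.00186 in WT and 1.27 in dFezf1 per the authors' deposited table (adjusted p = 6.12e-07). Con, which encodes the homophilic adhesion protein Connectin, was at 0.00326 and 0.556 per the authors' deposited table (adjusted p = 0.00268). The Slit receptor gene robo2 and comm2 were listed at 0 in WT, and robo2 had a dFezf1 mean of 0.151 per the authors' deposited table (adjusted p = 5.43e-07). For 7 of the 9 called genes the 95% interval of the shrunken fold change excluded 0, and robo2 and comm2 were the exceptions. The 7 semaphorin and plexin pathway genes and the 2 ephrin pathway genes included none that was called, which in so few genes is near the 6.82% of all tested genes. None of them had an unadjusted p under 0.05 in the authors' test.

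**Figure D4:**
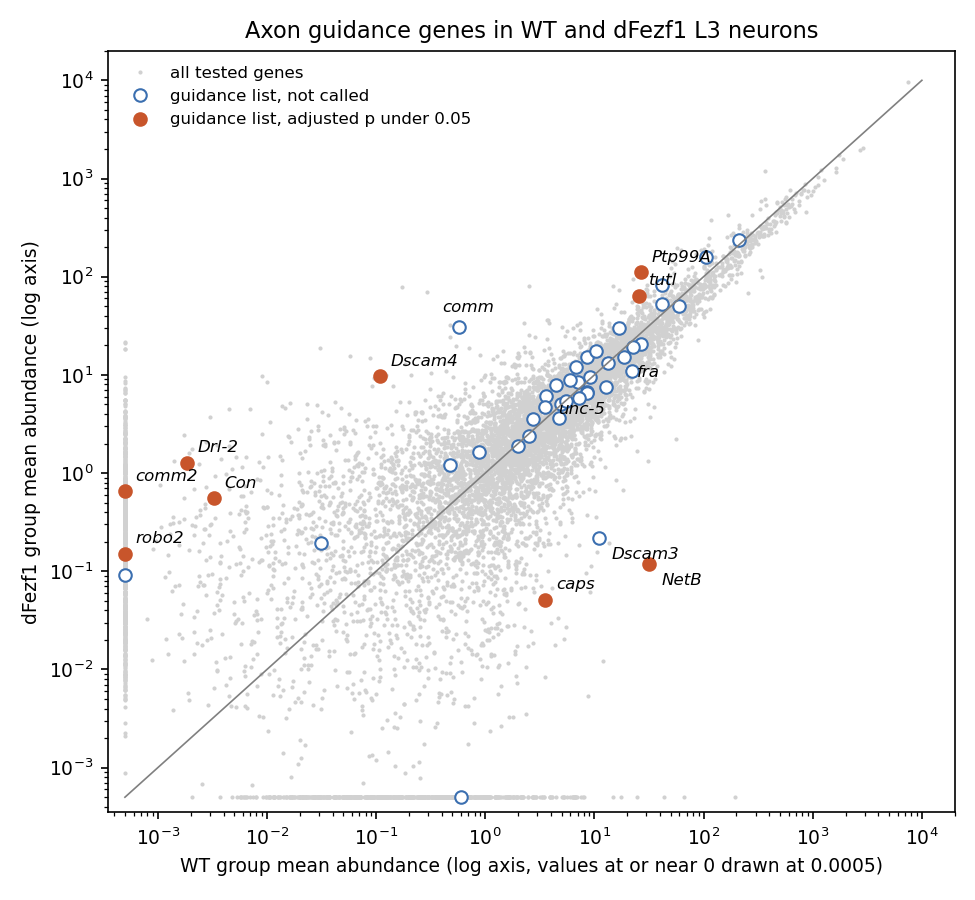
Group mean abundance in WT (horizontal, log axis) and dFezf1 (vertical, log axis) for the 46 tested guidance genes over all tested genes (grey), with called genes filled and the diagonal marking equal levels. NetB lies far below the diagonal, at 31.5 and 0.119, fra lies close to it, and 7 called genes lie above it.

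The genes around the netrin pair were then examined. NetA and NetB are separated by 32109 bases that hold 1 annotated gene apart from transposable elements, CG5321, which the authors' deposited table lists at 0 in WT and dFezf1 alike. From 100 kb before NetA to 100 kb after NetB the annotation holds 26 genes apart from transposable elements, of which 23 are per the authors' deposited table and 20 were tested. NetB was the 1 gene called there, of 20 tested, beside 6.82% of all 9387 tested genes. With 20 genes 1 call is near that share, so the lack of further calls does not set the locus apart. The other 19 had log2 fold changes between -1.45 and 1.19 per the authors' deposited table, 11 below 0 and 8 above, with a lowest adjusted p of 0.0879 and 2 unadjusted p under 0.05. That lowest value belonged to rut, the rutabaga adenylyl cyclase gene, with means of 1.67 and 3.62 and a log2 fold change of 1.15 ± 0.42 (SE) per the authors' deposited table.

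The nearest tested gene upstream of NetB is CG15890, 8.16 kb from the 5′ end of NetB, listed at 0 in WT and at 0.04998 in dFezf1 per the authors' deposited table. Nearest to NetA is sbm, with means of 1.29 and 0.899 per the authors' deposited table and a log2 fold change of -0.11 ± 0.71. The abundant genes of the interval were Grx5, a glutaredoxin gene, with means of 50.9 and 41.3, and Flo2, a flotillin gene, with 22.5 and 19.25 per the authors' deposited table, and their adjusted p were 0.970 and 0.949. Between 25.9 and 37.2 kb upstream of NetB, CG5334, CG5347, Ag5r2 and Ag5r had means of at most 2.08 in both groups, and the log2 fold changes of CG5347 and Ag5r were 1.19 ± 0.75 and -1.45 ± 0.81 per the authors' deposited table. The remaining tested genes, CG14414, mRpS25, nmdyn-D6, CG14408, CG14411, CG14410, CG32590 and CG12539, had log2 fold changes between -0.52 and 0.83 per the authors' deposited table, none of them called.

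Both genes nested within the NetB span were low in WT and listed at 0 in dFezf1. hog, on the strand of NetB, had a WT mean of 1.33 and an adjusted p of 0.379 per the authors' deposited table, and CG43088, on the opposite strand, had 0.356 and 0.423. Neither shares an exonic base with NetB in the annotation. The sources used here do not state whether reads were counted by strand, so reads from NetB introns and reads from these 2 genes cannot be told apart.

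**Figure D5:**
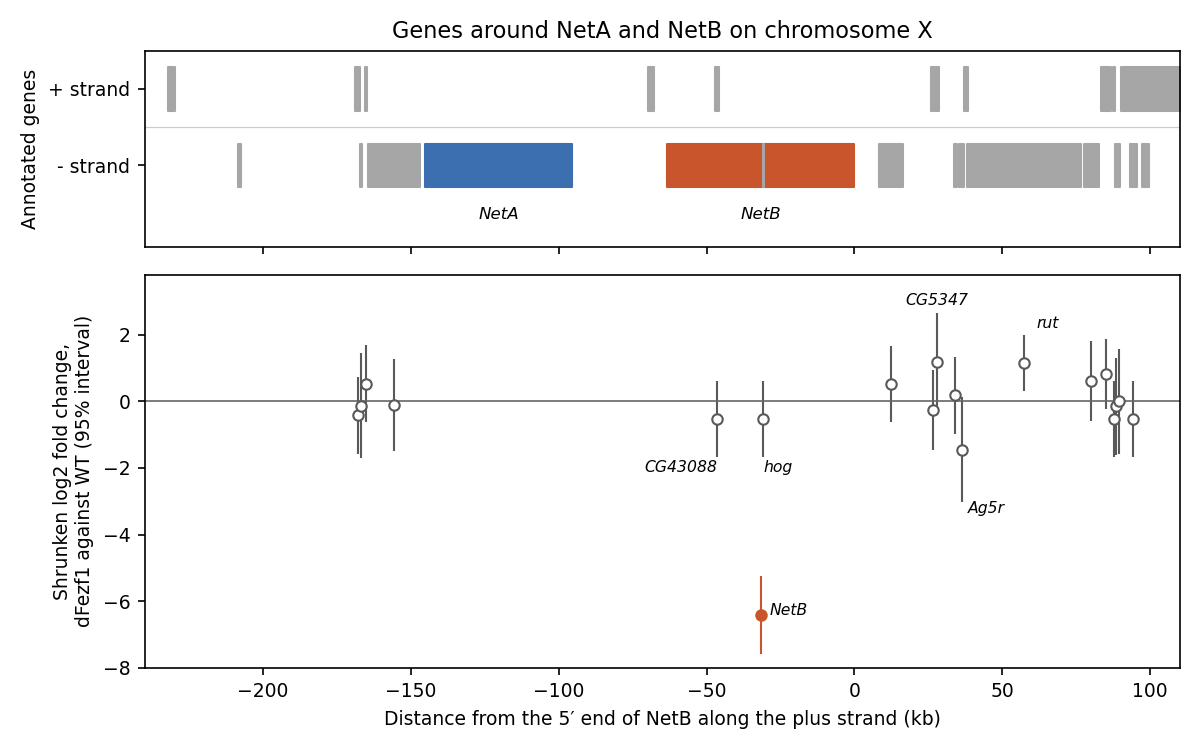
Annotated genes around NetA and NetB by strand (top) and the shrunken log2 fold change of dFezf1 against WT of each tested gene with its 95% interval (bottom), against the distance in kb from the 5′ end of NetB. NetB stands at -6.43, while the other 19 tested genes lie between -1.45 and 1.19.

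The tested genes whose 2 group means were most like those of NetB were ranked by their distance on the log2(mean + 0.1) scale. The nearest 5 lay 1.19 to 1.56 log2 units away, and all were called lower per the authors' deposited table, a direction that the choice by a high WT and a low dFezf1 mean largely fixes. In order they were Ilp1, CG34212, dpr1, CG43679 and CG45080, of which all but dpr1 were listed at 0 in dFezf1. For 3 of them, CG34212, CG43679 and CG45080, the 95% interval of the shrunken log2 fold change included 0, and the 4 listed at 0 are not tested where both group means must be above 0. The insulin-like peptide gene Ilp1 had a WT mean of 24.3 per the authors' deposited table, and dpr1, which encodes an immunoglobulin-family surface protein, had means of 13.6 and 0.192. Their mean normalized counts of 47.8 to 1241 were below the 7723 of NetB per the authors' deposited table. Ilp1 lies within the span of CG32052, so the origin of its reads is uncertain. The likeness rests on 2 group means per gene and not on samples.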

How the data were processed

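RNA of 3 WT and 3 dFezf1 samples was profiled from Smart-seq2 and Nextera libraries, per the labels' protocols. BDGP6 is the build and DESeq2, Salmon, STAR and FastQC are the tools, all without versions, in the submitters' processing notes. Per the file headers, the authors' deposited comparison gives a mean normalized count (a signal over all libraries), a log2 fold change with its SE, a test statistic (a score), and p-values with adjusted p-values. It also gives 2 group means, an abundance signal of the authors with no stated unit. They were read as length-scaled, because dividing the mean normalized count by them gave a quantity that followed exon length (Spearman 0.951 across 5738 genes).

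A further 12 columns of values per library carry codes that match no sample label, and none was used. Depth per library, replicate spread and edgeR fits are therefore not given, and the authors' comparison replaced the planned fits. The design text calls the samples biological replicates.

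Deposited log2 fold changes were read as shrunken, because divided by their SE they differ from the statistic (for LanA, -0.53 and 0.59 beside -5.34). Genes were named by identifier. The annotation's gene starts equalled the deposited ones in 99.2% of 13503 genes. Calls used an adjusted p below 0.05, and 95% intervals are normal, from the deposited SE. Adjusted p-values were recomputed by the Benjamini-Hochberg method for the alternatives (Python 3.11.15, pandas 2.3.3, numpy 2.4.6), a step tested on simulated data. The members, lists and alternatives were chosen with earlier results of these data known, and the 10 cues after their values were seen. Named genes were the members, erm, every called gene of both lists, every tested gene of the locus and the 5 genes most like NetB. Further genes (the uncalled pathway and cue genes, comm, comm3, Dscam3, the markers, Pms2 and CG32052) were named after their values were seen. One role group of the pathway list enters its counts and is otherwise not reported here.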

Additional observations from a re-analysis of the deposited data

How the results depend on the processing

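The alternatives for calls refitted nothing: each reused the deposited estimates and p, and changed only a cut-off or the set of genes adjusted over. With an unadjusted p of 2.89e-27 in the authors' test, the call of NetB could hardly change, so they do not test it further. It held at an adjusted p under 0.01, without a filter on low counts, with genes of mean normalized count 100 or more, above 0 in both groups and where the 95% interval excludes 0. The highest adjusted p of NetB in these alternatives was 2.56e-24. The adjusted p of fra ranged from 0.889 to 0.976 and that of unc-5 from 0.496 to 0.649. The size for NetB depended on how it was expressed: the log2 ratio of group means was -7.17 with a pseudocount of 0.1 and -4.86 with a pseudocount of 1. The netrin pathway list had 1 gene called, NetB, in place of 2 among genes of mean normalized count 100 or more, above 0 in both groups, and where the interval excludes 0, since LanA meets none of these limits. Over all genes the count of calls was 640 of 9387 tested, against 297 of 5861 with mean normalized count 100 or more. It was 254 of 7983 above 0 in both groups and 359 of 9387 where the interval excludes 0. The guidance list had 9 of 46 genes called, against 6 of 40, 7 of 42 and 7 of 46 under the same limits in that order. At the locus 1 gene was called in every alternative run, of 10 to 22 tested. Over both groups NetB was below fra by the group means (log2 ratio -0.11) and above it by the mean normalized count per exon length (0.06), so their pooled order was not settled. No paired analysis was possible because the deposited columns used carry no replicate numbers. Leaving out replicates, edgeR and DESeq2 fits were not run for the same reason, and a sequence comparison of NetA with NetB was not run.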
